A study of Mus musculus with 12 samples.

Results

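The expression of 9 genes of the complement system was examined in lungs of obese db/db mice exposed to ozone (O3). The 9 genes were those of a given list, C1qa, C1qb, C1qc, C2, Cfb, C3, C3ar1, C5ar1 and Cd55, and each was taken from the deposited table by its symbol. They were all found, each with 1 probe set, among 21759 genes with 1 probe set each. Lung RNA was measured on 12 Affymetrix mouse gene arrays, and each value is an RMA signal on the log2 scale, so that a difference of 1 is a doubling. The arrays fell into 4 groups of female mice on a C57BL/6 background, bought at 6 weeks of age and kept for a further 4 weeks. Blocking antibody to the cytokine IL-17A was combined with O3 in db/db mice on 3 arrays (anti-IL-17A replicates 1, 2 and 4). An isotype control antibody was combined with O3 in db/db mice on 4 arrays (isotype O3) and in a wild-type (WT) mouse on 1 array, and with air in db/db mice on 4 arrays (isotype air). The O3 groups breathed 2 ppm O3 over 3 h, and lungs were taken 24 h afterwards. All groups, air and WT included, thus received an antibody, and no group without one was measured. In db/db mice the leptin receptor is without its long form in every cell. The labels name left lungs and the methods of the study the right lung as the source of RNA, and by those methods blood was flushed out of the lungs first.

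Complement is a cascade of proteins that marks microbes and damaged cells for removal. It starts through C1q bound to antibody or to dying cells (classical pathway), through lectins bound to sugars (lectin pathway) or by slow activation of C3 itself (alternative pathway), and each route cleaves C3. The fragments C3a and C5a attract and activate myeloid cells through the receptors encoded by C3ar1 and C5ar1, and regulators such as the membrane protein encoded by Cd55 take the C3-cleaving enzymes apart on the body's own cells. Most circulating complement comes from the liver, but epithelial cells, fibroblasts and macrophages of the lung transcribe parts of it, C1q chiefly in macrophages. A whole-lung array reads all of these cells together, so that fewer cells of a type and less RNA per cell cannot be told apart.

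The promoters of members that either moved together over the arrays or differed most between O3 and air are shown first. The RefSeq table (build GRCm38.p6) held the start regions of 6 of the 9 members, C3, C1qb, C1qc, C3ar1, C5ar1 and Cd55. The 250 bases before the start are given 5′ to 3′ for 4 of them, C3 and C1qb because their signals were alike over the arrays, C1qc as the neighbour of C1qb, and Cd55 because its O3 and air arrays did not overlap. Capitals mark matches on either strand to the motifs listed after the sequences.
C3, chr17:57228137-57228386, minus strand: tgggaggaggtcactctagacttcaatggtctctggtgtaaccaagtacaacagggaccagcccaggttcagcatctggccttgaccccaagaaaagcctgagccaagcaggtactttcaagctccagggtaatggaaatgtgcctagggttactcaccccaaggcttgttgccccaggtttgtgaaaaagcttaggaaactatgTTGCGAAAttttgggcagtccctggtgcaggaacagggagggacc
C1qb, chr4:136886201-136886450, minus strand: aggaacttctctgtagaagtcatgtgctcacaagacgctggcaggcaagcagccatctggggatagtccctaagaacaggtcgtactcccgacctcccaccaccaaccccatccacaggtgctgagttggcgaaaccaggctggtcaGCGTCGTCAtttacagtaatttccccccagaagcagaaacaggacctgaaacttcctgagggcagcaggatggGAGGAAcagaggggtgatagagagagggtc
C1qc, chr4:136892915-136893164, minus strand: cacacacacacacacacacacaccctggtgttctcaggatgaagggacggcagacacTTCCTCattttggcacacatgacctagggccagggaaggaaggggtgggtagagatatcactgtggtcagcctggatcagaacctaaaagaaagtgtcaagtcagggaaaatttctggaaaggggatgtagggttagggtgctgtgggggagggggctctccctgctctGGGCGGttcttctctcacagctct
Cd55, chr1:130462745-130462994, minus strand: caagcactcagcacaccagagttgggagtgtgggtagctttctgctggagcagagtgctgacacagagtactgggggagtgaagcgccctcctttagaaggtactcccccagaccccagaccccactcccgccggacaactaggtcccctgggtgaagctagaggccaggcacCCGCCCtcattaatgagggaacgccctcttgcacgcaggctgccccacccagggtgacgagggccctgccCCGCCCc
6 motifs were searched in these windows and in those of all 32817 promoters of the table. The C/EBP motif TTGCNNAA was found in 9.57% of all promoters and among the members in C3 alone, where it began 45 bases before the start as TTGCGAAA. The PU.1 motif GAGGAA was found in 23.3% of all promoters and in C1qb and C1qc, at 30 bases before the start of C1qb and, on the other strand, at 193 bases before that of C1qc. The core of the antioxidant response element, TGACNNNGC, was found in 10.2% of all promoters and among the members in C1qb alone. The GC box GGGCGG was found in 32.7% of all promoters, and in the windows of C1qc, C3ar1 and Cd55, with 2 matches in Cd55. The AP-1 motif TGANTCA (6.75% of all promoters) was found in C3ar1 alone, and the STAT motif TTCNNNGAA (7.01%) in none of the 6 windows. No 2 of the matches printed here overlapped. The window of Cd55 held 64% G and C, and that of C3 held 52%, against a median of 52.4% over all promoters.

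Array medians ranged between 4.751 and 4.9005. The lung markers Sftpc, of alveolar type 2 cells, and Scgb1a1, of club cells, were bright on every array, at 11.40 to 12.001 and at 10.94 to 11.60. Anti-IL-17A replicate 1 stood apart from the other arrays, as its correlation across genes averaged 0.947, against 0.973 to 0.982 on the other 11 arrays. It held the highest of the 12 values for 33.4% of all genes and the lowest for 19.7%. The adipocyte marker Ucp1 was at 10.12 or above in that array and in 1 array each of isotype O3 (replicate 4) and isotype air (replicate 3), and at 5.08 or below elsewhere. The labels do not say whether arrays of a group came from separate mice, so that p-values measure only the spread between these arrays, and the number of arrays limits the precision.

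The first comparison asked how complement transcripts differed after O3 in obese mice that had the isotype antibody. None of the 9 members passed at a Benjamini-Hochberg adjusted p under 0.05 in limma's fit to all 12 arrays, in which 1.06% of all genes were called (0.597% higher and 0.46% lower). At an unadjusted p under 0.05 the count was also 0 of 9, against 15.1% of all genes. A linear model without moderation called 0 members and 0 of all genes. The median difference of the 9 was -0.09 on the log2 scale, against 0.00 over all genes, with 2 members above 0 and 7 below. The O3 and air arrays overlapped for C1q, C2, factor B, C3 and both receptors, and Cd55, which encodes decay-accelerating factor, had the lowest difference of the 9.

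C1qa, C1qb and C1qc encode the A, B and C chains of C1q, the recognition protein of the classical pathway, and lie next to each other in the genome. Their probe sets (10517517, 10517508 and 10517513) gave signals little above the array medians, and the files hold no detection call. C1qa was at 5.02, 5.12, 5.06 and 5.17 in the isotype O3 arrays (replicates 1 to 4), against 5.31, 5.08, 5.03 and 5.002 in the isotype air arrays. C1qb was at 5.47, 5.28, 5.76 and 5.74 in isotype O3, against 5.91, 5.80, 5.56 and 5.07 in isotype air. For both genes the groups overlapped, and air replicate 1 held the highest of these 8 values. The differences were -0.01 for C1qa (SE 0.13, 95% confidence interval from -0.29 to 0.27) and -0.02 for C1qb (SE 0.20, interval from -0.48 to 0.43). C1qc was at 5.53, 5.51, 5.55 and 5.54 in isotype O3, against 6.04, 5.35, 5.72 and 5.47 in isotype air. The O3 arrays of C1qc were close to each other (SD 0.017, n = 4) and inside the range of the air arrays (SD 0.305, n = 4). Its difference was -0.11 (SE 0.17, interval from -0.49 to 0.26, adjusted p = 0.81 from limma).

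C2 and factor B, encoded by Cfb, supply the protease of the C3-cleaving enzyme in the classical and lectin routes and in the alternative route, and their genes are neighbours. C2 (probe set 10450344) was at 5.87, 5.34, 5.40 and 5.74 in isotype O3, against 5.39, 5.41, 5.53 and 4.99 in isotype air. As for C1q, these signals were little above the array medians. The groups overlapped, with O3 replicates 1 and 4 above all air arrays. The difference was 0.26 (SE 0.20, interval from -0.18 to 0.69, adjusted p = 0.59 from limma). Cfb (probe set 10450325) was at 8.69, 8.24, 8.56 and 8.80 in isotype O3, against 9.36, 8.26, 8.16 and 7.89 in isotype air. Air replicate 1 lay above all O3 arrays, and the other 3 air arrays lay at or below 8.26. The difference of 0.15 had an SE of 0.32 and an interval from -0.56 to 0.86. It was -0.03 without air replicate 4 and 0.46 without air replicate 1. C3 (probe set 10452316), which encodes the central component that all routes cleave, was at 10.81, 10.45, 11.09 and 10.89 in isotype O3, against 11.23, 10.77, 10.96 and 10.63 in isotype air. The groups overlapped over most of their ranges. The difference in C3 was -0.09 (SE 0.17, interval from -0.46 to 0.29, adjusted p = 0.86 from limma).

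C3ar1 and C5ar1 encode the receptors for C3a and C5a, which are carried by macrophages, monocytes and neutrophils. C3ar1 (probe set 10547657) was at 6.52, 6.81, 6.49 and 7.55 in isotype O3, against 7.25, 7.14, 7.23 and 6.40 in isotype air. In each group 1 array lay apart, the highest in O3 (replicate 4) and the lowest in air (replicate 4). The difference was -0.16 (SE 0.31, interval from -0.86 to 0.53). C5ar1 (probe set 10560242) was at 6.37, 6.05, 6.02 and 6.34 in isotype O3, against 6.77, 6.21, 6.63 and 6.79 in isotype air. Air replicate 2 was the one air array within the range of the O3 arrays. The difference in C5ar1 was -0.40 (SE 0.24, interval from -0.94 to 0.14, adjusted p = 0.48 from limma, two-sided exact permutation test p = 0.086). Of the 12 neutrophil markers 11 lay below 0 in this comparison, the lowest at -1.26, and 1 lay above, at 1.78 (median -0.61). The mean of the 12 was 6.04 to 6.65 in the O3 arrays and 5.79 to 7.73 in the air arrays. The order of arrays differed between the groups. In the air arrays this mean was 7.73 and 7.51 in replicates 1 and 4, in which C5ar1 was highest, and 5.79 in replicate 2, in which C5ar1 was lowest. In the O3 arrays it was highest in replicate 2 (6.65), in which C5ar1 was at 6.05, and lowest in replicate 4 (6.04), in which C5ar1 was at 6.34. Some of the neutrophil markers gave signals under the array medians on all arrays. Of 12 markers of monocytes and interstitial macrophages 8 lay below 0 and 4 above (median -0.26). Over the 12 arrays C5ar1 had Pearson's r of 0.70 with the mean of these and 0.65 with that of the neutrophil markers. With that of the alveolar macrophage markers r was 0.43. The part of any of these cell types in the C5ar1 values was not tested.

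Cd55 (probe set 10357488) was at 8.58, 9.17, 8.91 and 9.10 in isotype O3, against 9.62, 9.76, 9.73 and 9.68 in isotype air. Each O3 array lay below each air array, which held for 6.65% of all genes (15.4% in either direction), and Cd55 was the only member for which the groups did not overlap. Cd55 averaged 8.94 ± 0.27 in isotype O3 and 9.69 ± 0.06 in isotype air (SD, n = 4 each). The difference was -0.75, or 0.594-fold, with an SE of 0.41 and an interval from -1.67 to 0.16 (adjusted p = 0.43 from limma). A two-sided exact permutation test gave p = 0.029, which 4 arrays against 4 cannot go below. The SE depended on arrays outside the comparison, as Cd55 was at 6.79 in anti-IL-17A replicate 1, the lowest of the 12 arrays. When the fit was limited to the 8 arrays being compared, Cd55 had an adjusted p of 0.011 and 7.84% of all genes were called. In the fit to all arrays less anti-IL-17A replicate 1, chosen after seeing the data, it had an adjusted p of 0.043. There 3.83% of all genes were called. The difference was -0.75 in both fits. Some cell markers were also lower after O3. Of 8 club cell markers 2, Scgb3a2 and Aldh1a1, were called lower. The mean of the 8 was 9.41 to 9.68 in the O3 arrays, against 10.29 to 10.39 in the air arrays. Of 11 alveolar macrophage markers 8 had differences below 0 and 3 above, and their mean overlapped (7.61 to 8.55 in O3, 8.21 to 8.50 in air). Over the 12 arrays Cd55 had Pearson's r of 0.73 with the mean of either list and -0.78 with that of the hepatocyte markers. From the mean of the 12 arrays, anti-IL-17A replicate 1 deviated by -2.25 for Cd55 and -0.89 for the alveolar macrophage markers. It deviated by -0.45 for the club cell markers and 0.30 for the hepatocyte markers. These r thus rested in part on 1 array, and r without it was not computed. Most of the hepatocyte markers gave mean signals near or under the array medians. The part of any of these cell types in the Cd55 values was not tested. The plot of each member on each array shows these values.

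**Figure D1:**
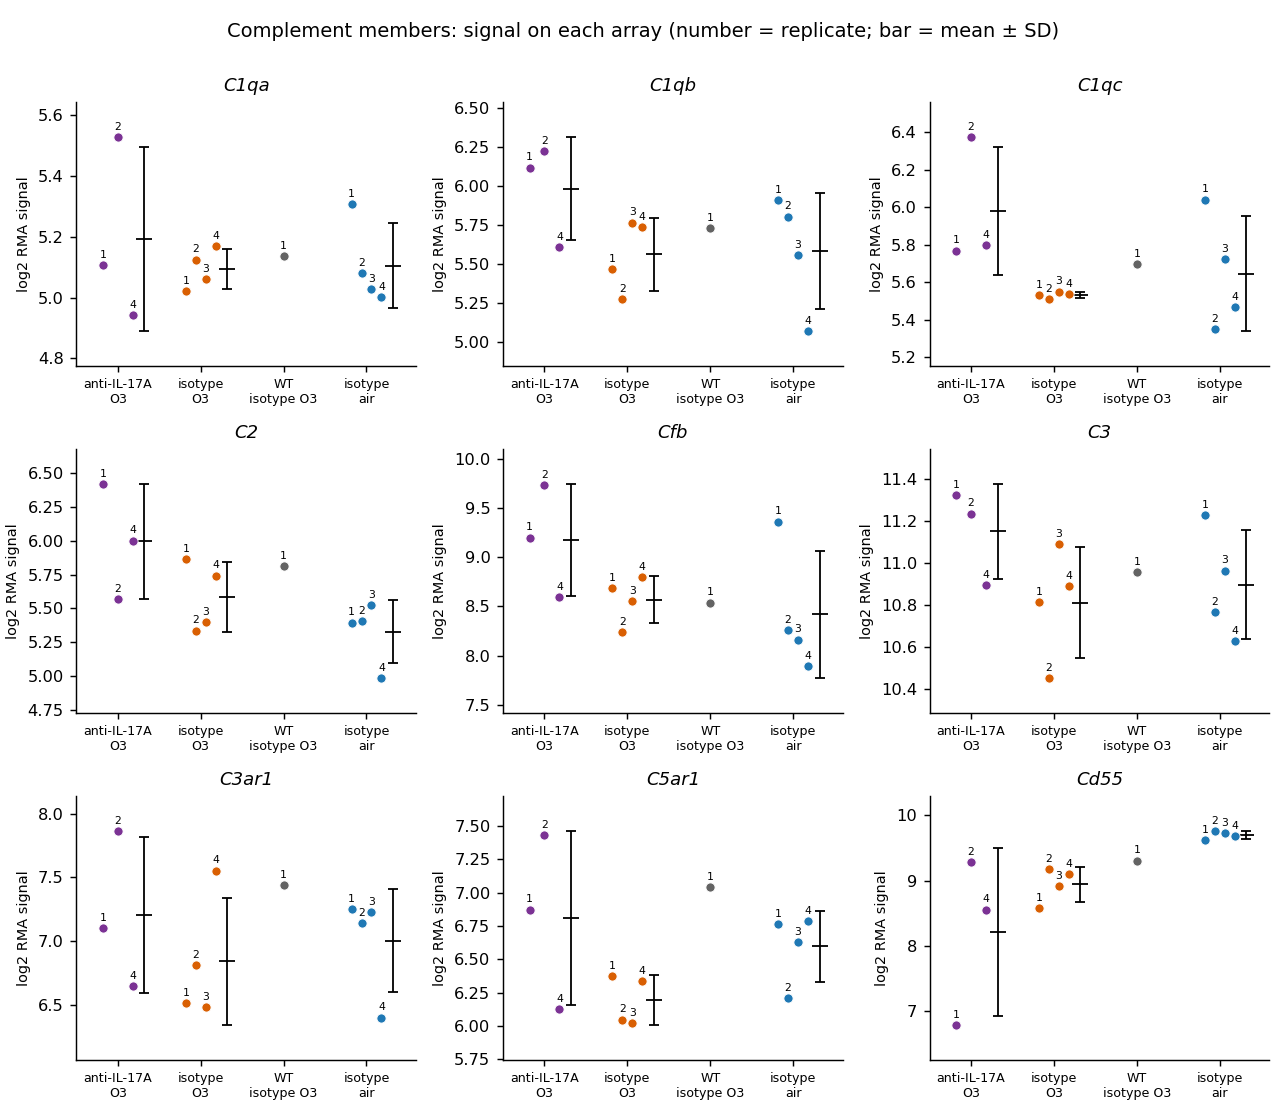
Signal of the 9 members on each of the 12 arrays (log2 RMA signal, 1 panel per gene with its own vertical axis). Points are arrays, numbered by replicate, in the order db/db anti-IL-17A O3, db/db isotype O3, WT isotype O3 and db/db isotype air, and bars give mean and SD where a group had more than 1 array. In the Cd55 panel the 4 isotype O3 arrays (8.58 to 9.17) lie below the 4 air arrays (9.62 to 9.76), and anti-IL-17A replicate 2 is the highest of the 12 arrays in 6 panels.

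The second comparison addressed blockade of IL-17A, a cytokine that induces many genes of innate defence, in db/db mice exposed to O3. No member passed at an adjusted p under 0.05 in limma, where 0% of all genes were called. At an unadjusted p under 0.05, the count was 2 of 9, C1qc and C5ar1, both with a difference above 0, against 4.6% of all genes in either direction. Of the 9 members 8 had a difference above 0 and 1, Cd55, below 0. The median difference was 0.41, against 0.04 over all genes, and every adjusted p was 0.83 or above. This rested in part on 1 array, since 6 of the 9 members were highest of all 12 arrays in anti-IL-17A replicate 2, which was highest for 8.49% of all genes.

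C1qc was at 5.77, 6.37 and 5.80 in the anti-IL-17A arrays (replicates 1, 2 and 4), against 5.51 to 5.55 in the isotype O3 arrays. Each anti-IL-17A array lay above each isotype O3 array, which held for 2.63% of all genes (1.42% lay wholly below and 4.05% either way), and C1qc was the only member of this kind. Its difference was 0.45 (SE 0.18, interval from 0.05 to 0.85, adjusted p = 0.83 from limma, two-sided exact permutation test p = 0.057, below which 3 arrays against 4 cannot go). It was 0.25 without anti-IL-17A replicate 2. C5ar1 was at 6.87, 7.43 and 6.13 with anti-IL-17A, against 6.02 to 6.37 with the isotype antibody, a difference of 0.62 (SE 0.26, interval from 0.03 to 1.20), or 0.31 without anti-IL-17A replicate 2. Replicates 1 and 2 lay above all isotype O3 arrays for C5ar1 and replicate 4 lay within them. C1qb showed the same order, with 6.12, 6.22 and 5.61 in the anti-IL-17A arrays against 5.28 to 5.76 in the isotype O3 arrays (difference 0.42, SE 0.22). C1qa was at 5.11, 5.53 and 4.94 with anti-IL-17A, against 5.02 to 5.17 with the isotype antibody (difference 0.10, SE 0.14). Of these genes C1qa alone had a difference below 0 without replicate 2 (-0.07).

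Cfb was at 9.20, 9.74 and 8.60 in the anti-IL-17A arrays, against 8.24 to 8.80 in the isotype O3 arrays (difference 0.61, SE 0.35, interval from -0.16 to 1.37), and the difference was 0.33 without replicate 2. C3 was at 11.32, 11.24 and 10.90, against 10.45 to 11.09 in isotype O3 (difference 0.34, SE 0.18, interval from -0.06 to 0.74). For both genes replicates 1 and 2 lay above every isotype O3 array and replicate 4 lay among them. C2 was highest in replicate 1, with 6.42, 5.57 and 6.00 in the anti-IL-17A arrays against 5.34 to 5.87 in isotype O3 (difference 0.41, SE 0.21, interval from -0.06 to 0.88), and the difference was 0.20 without replicate 1. C3ar1 was at 7.11, 7.86 and 6.65, against 6.49 to 7.55 in isotype O3 (difference 0.36, SE 0.34, interval from -0.38 to 1.11), and the difference was 0.04 without anti-IL-17A replicate 2. Cd55 was at 6.79, 9.29 and 8.56, against 8.58 to 9.17 in isotype O3 (difference -0.73, SE 0.45, interval from -1.72 to 0.26). Its 3 anti-IL-17A arrays lay below, above and just below the isotype O3 arrays, and without replicate 1 the difference was -0.02.

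**Figure D2:**
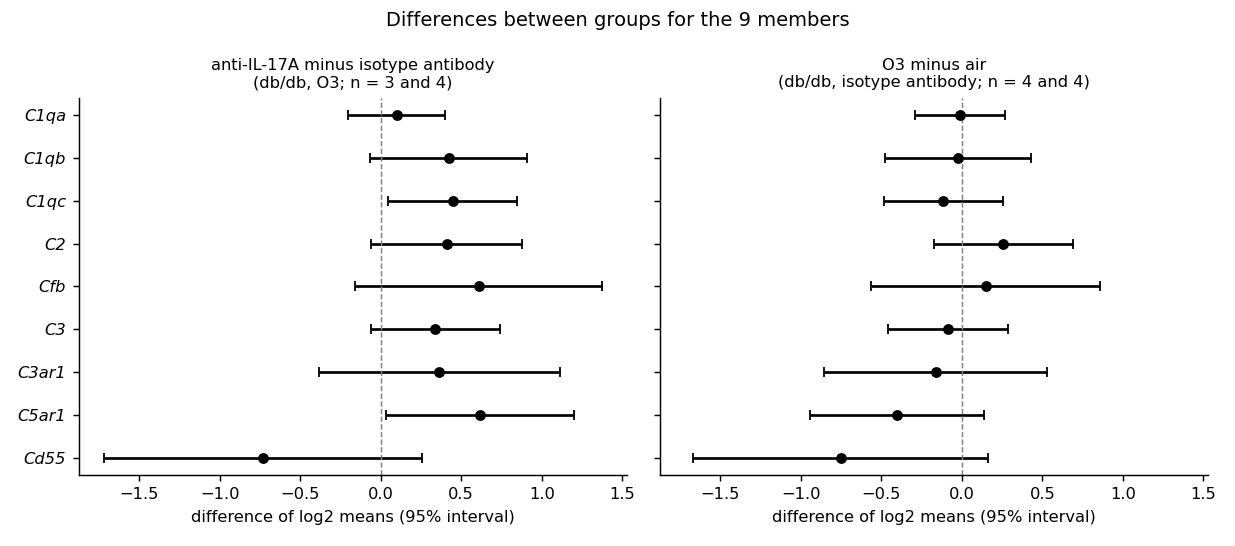
Differences of group means on the log2 scale for the 9 members, anti-IL-17A minus isotype after O3 (left, 3 and 4 arrays) and O3 minus air with the isotype antibody (right, 4 and 4 arrays), all in db/db mice. Points are differences and bars their 95% confidence intervals from limma's fit to all 12 arrays, not adjusted over genes. Only the intervals of C1qc (0.05 to 0.85) and C5ar1 (0.03 to 1.20) on the left lie wholly on one side of 0.

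Myeloid markers, and those of fibroblasts and mesothelium, are given beside these members. Over the 12 markers of monocytes and interstitial macrophages the mean was 7.82 in anti-IL-17A replicate 2 and 6.81 and 6.83 in replicates 1 and 4, against 6.66 to 7.25 in isotype O3. Their median difference between anti-IL-17A and isotype was 0.37, with 8 of 12 above 0. The mean of the 12 neutrophil markers was 7.501 in anti-IL-17A replicate 2 and 5.90 and 6.03 in the others, against 6.04 to 6.65 in isotype O3. S100a9, a calprotectin subunit abundant in neutrophils, was at 8.44, 10.92 and 8.34 in the anti-IL-17A arrays and at 8.11 to 10.04 in isotype O3. The 11 alveolar macrophage markers averaged 7.28, 8.84 and 7.89 in the anti-IL-17A arrays and 7.61 to 8.55 in isotype O3. Replicate 2 was thus the highest of all 12 arrays for the means of both macrophage lists. Fibroblast and mesothelial markers averaged 7.998, 7.83 and 7.62 in the anti-IL-17A arrays, against 7.46 to 7.76 in isotype O3. Pearson's r over the 12 arrays follows, first with this mean and then with that of the monocyte and interstitial macrophage markers. It was 0.87 and 0.34 for C3, 0.78 and 0.49 for Cfb, 0.84 and 0.47 for C1qb and 0.64 and -0.22 for C2. It was 0.50 and 0.81 for C1qa, 0.61 and 0.84 for C3ar1 and 0.42 and 0.70 for C5ar1. For C1qc it was 0.64 and 0.66, and for Cd55 -0.54 and 0.49. The part of any of these cells in the members' values was not tested.

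**Figure D3:**
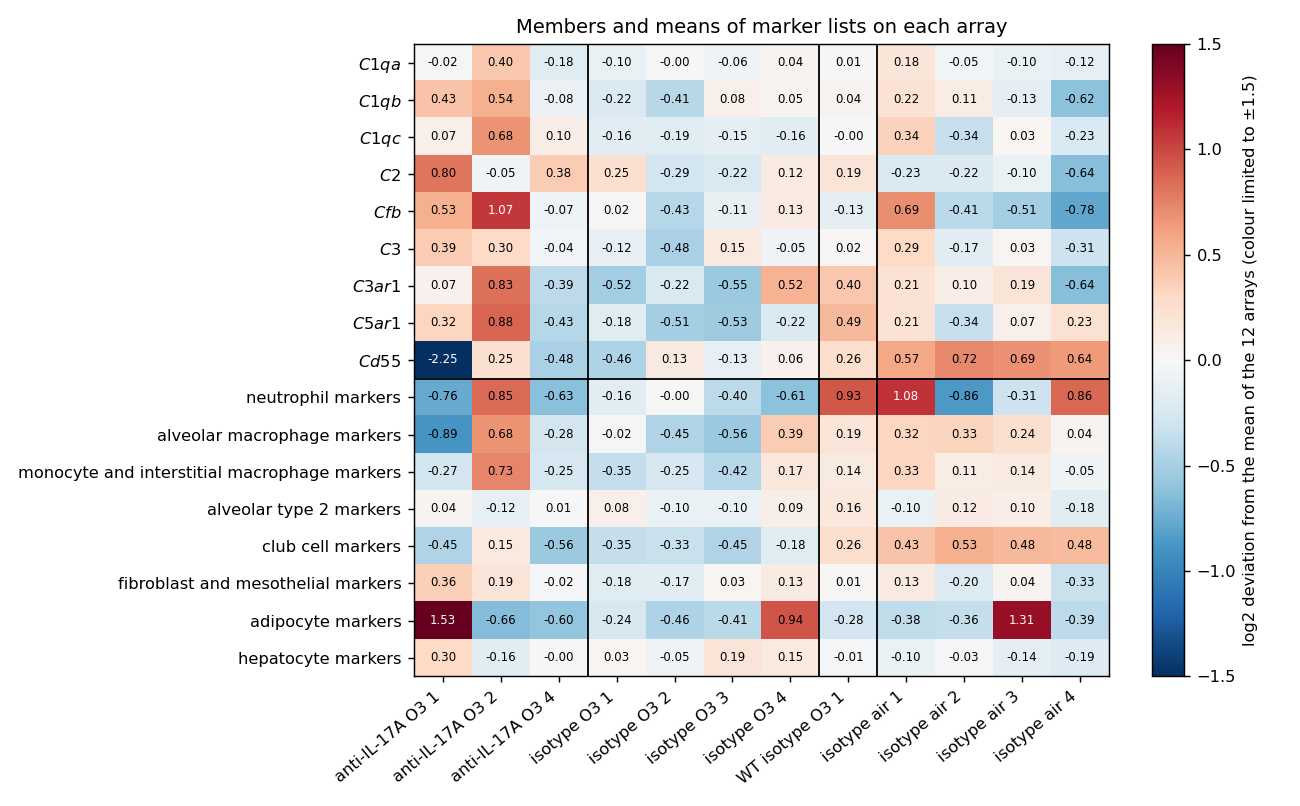
Deviation of each member, and of the mean of each marker list, from its mean over the 12 arrays (log2 units, colour limited to ±1.5). Columns are arrays in the order anti-IL-17A O3, isotype O3, WT isotype O3 and isotype air, with lines between groups. Anti-IL-17A replicate 2 is above the mean for C3ar1 (0.83), C5ar1 (0.88) and the neutrophil markers (0.85), and Cd55 in anti-IL-17A replicate 1 is at -2.25.

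Against air the anti-IL-17A O3 arrays differed in exposure and antibody together, and this comparison shares the air arrays with the first. No member was called in limma, where 0% of all genes were called, and 2 of 9 had an unadjusted p under 0.05, against 16.6% of all genes. They were C2, with a difference of 0.67 (SE 0.21, adjusted p = 0.21 from limma), and Cd55, with a difference of -1.48 (SE 0.45, adjusted p = 0.20 from limma). All anti-IL-17A arrays of C2 (5.57 to 6.42) lay above all air arrays (4.99 to 5.53), which held for 7.1% of all genes. All anti-IL-17A arrays of Cd55 (6.79 to 9.29) lay below all air arrays (9.62 to 9.76), which held for 4.96% of all genes. For both genes the exact permutation p was 0.057. Both depended on single arrays. Without anti-IL-17A replicate 1 the differences were 0.46 for C2 (adjusted p = 0.46 from limma) and -0.77 for Cd55 (adjusted p = 0.31 from limma). Without anti-IL-17A replicate 2 they were 0.88 for C2 (adjusted p = 0.025 from limma) and -2.02 for Cd55 (adjusted p = 0.012 from limma), in a fit that called 12.7% of all genes. Side by side, Cd55 averaged 8.21 in anti-IL-17A O3, 8.94 in isotype O3 and 9.69 in isotype air, and C2 averaged 6.00, 5.59 and 5.33 in the same order of groups.

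The wider system was described by 50 complement genes in 7 lists, the 9 members among them, and all 50 were measured. None was called for O3 minus air in limma's fit to all arrays, and at an unadjusted p under 0.05 there were 5 of 50, 1 with a difference above 0 and 4 below, against 15.1% of all genes. The O3 arrays lay wholly below the air arrays for 5 of the 50 and wholly above for 1, against 6.65% and 8.78% of all genes. The median difference over the 50 was -0.11, against 0.00 over all genes, with 14 above 0 and 36 below. The median was -0.20 over 9 receptors, -0.20 over 7 genes of the terminal pathway, which builds the membrane attack complex, and -0.16 over 7 membrane regulators. It was -0.18 over 4 genes of the alternative pathway with C3, -0.08 over 8 of the lectin pathway, -0.02 over 8 soluble regulators and -0.01 over 7 of the classical pathway.

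Clu, which encodes clusterin, a soluble chaperone that blocks the membrane attack complex, was the highest of the 50 for O3 minus air. Clu was at 9.57, 9.23, 9.45 and 9.52 in isotype O3, against 8.44, 8.43, 8.50 and 8.07 in isotype air. The groups did not overlap, as for 8.78% of all genes in this direction. The difference was 1.08 (SE 0.38, interval from 0.25 to 1.91, adjusted p = 0.20 from limma, two-sided exact permutation test p = 0.029). Clu was at 10.51, 8.23 and 9.75 in the anti-IL-17A arrays, so that replicate 2 lay at the level of the air arrays and the others above every isotype O3 array. In the fit to all arrays less anti-IL-17A replicate 2 the difference of 1.08 had an adjusted p of 0.0074. This fit was chosen after seeing the data and called 4.15% of all genes, against 1.06% in the fit to all 12 arrays. Over the alternative settings tried, the adjusted p of Clu from the linear fits ran from 0.0019 to 0.39.

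Among the membrane regulators Daf2, the older symbol of Cd55b, stands next to Cd55 in the genome and encodes a related form of decay-accelerating factor. Daf2 was at 4.40, 4.39, 4.40 and 4.22 in isotype O3, against 4.95, 5.09, 4.75 and 5.21 in isotype air. Each O3 array lay below each air array, as for 6.65% of all genes. The difference was -0.65 (SE 0.14, interval from -0.96 to -0.33, adjusted p = 0.066 from limma), but the isotype O3 values lay under the array medians. The probe set of Daf2 is annotated to both Cd55b and Cd55, so that its signal can come from either gene, and it is not an independent observation from Cd55. Cd59b, for a protein that blocks assembly of the membrane attack complex, was also lower in each O3 array (3.99 to 4.16) than in each air array (4.23 to 4.77), with a difference of -0.37 (adjusted p = 0.42 from limma), but its signal lay under the array median on all 12 arrays. Cd46, Cr1l and Cd59a, further regulators on the cell surface, had differences of -0.16, -0.11 and -0.10, and their groups overlapped. The probe set of Cd59a is annotated to both Cd59 genes.

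Of the terminal genes Hc, which encodes C5, was at 10.07, 10.39, 9.61 and 9.94 in isotype O3, against 10.58, 10.78, 10.65 and 10.36 in isotype air. O3 replicate 2 and air replicate 4 overlapped narrowly, and the difference was -0.59 (SE 0.24, interval from -1.11 to -0.07, adjusted p = 0.26 from limma). C6, a part of the membrane attack complex, was at 6.68 to 6.997 in isotype O3, against 7.19 to 7.57 in isotype air. There was no overlap, as for 6.65% of all genes in this direction (difference -0.48, SE 0.23, adjusted p = 0.37 from limma). C7, which joins C6 in that complex, did not share this, with 10.46 to 10.71 in isotype O3 and 10.16 to 10.75 in isotype air (difference 0.17, SE 0.12). C8a and Colec10 were among the 4 genes with an unadjusted p under 0.05 and a difference below 0, but their signals (3.74 or below on all arrays) lay under the array medians. Masp1, a protease of the lectin pathway, had a difference of 0.48 (SE 0.24, adjusted p = 0.38 from limma). Serping1, for the soluble inhibitor of C1, had a difference of -0.08 (SE 0.11).

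**Figure D4:**
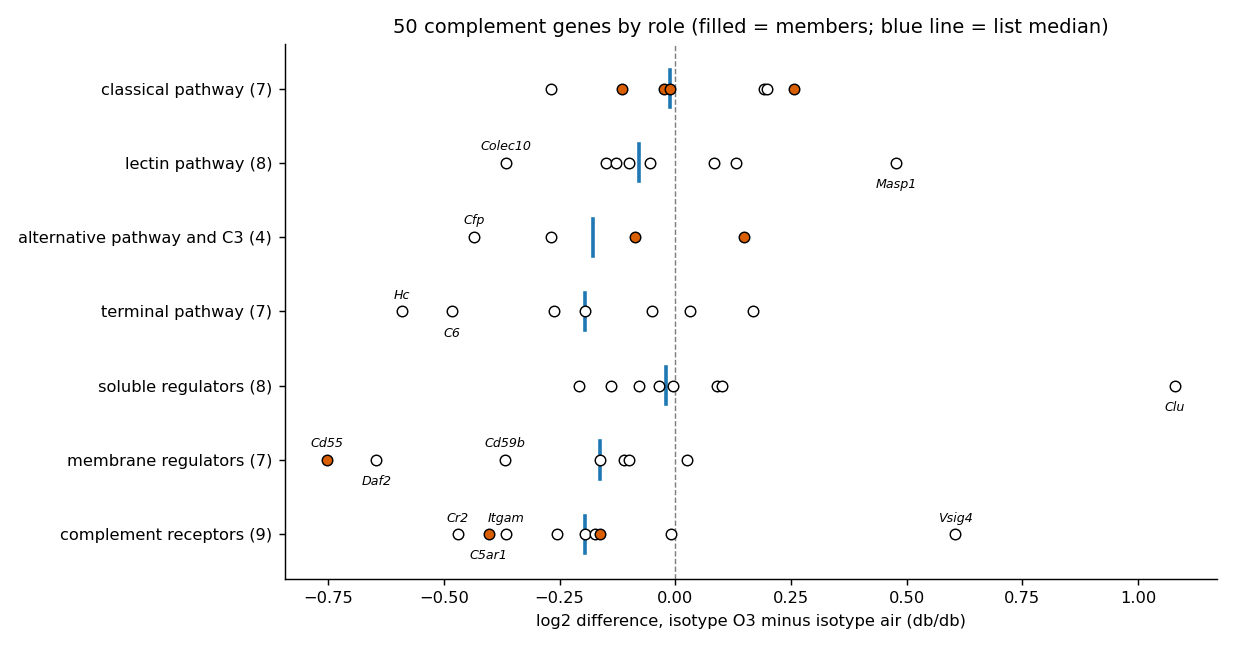
Difference of isotype O3 minus isotype air in db/db mice on the log2 scale for the 50 complement genes, in rows by role with the number of genes. Each point is a gene, filled points are the 9 members, and blue lines are list medians, which run from -0.20 to -0.01. Clu (1.08) lies farthest to the right and Cd55 (-0.75) and Daf2 (-0.65) farthest to the left, and none was called in the fit to all arrays.

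Of the other receptors Vsig4, an inhibitory receptor for fragments of C3 on tissue macrophages, varied most within the isotype O3 and isotype air groups. Vsig4 was at 5.40, 5.42, 6.79 and 7.76 in isotype O3, against 6.80, 5.08, 6.66 and 4.40 in isotype air, and no direction could be read (difference 0.61, SE 0.69). Itgam and Itgb2 encode the 2 chains of complement receptor 3, an integrin of neutrophils and macrophages. They had differences of -0.37 (SE 0.40) and -0.20 (SE 0.27), and Itgam was highest in anti-IL-17A replicate 2, at 8.02, against at most 7.74 elsewhere. Cd93, a receptor of endothelial cells once described as a C1q receptor, was at 10.32 to 10.72 in isotype O3, against 10.65 to 10.88 in isotype air (difference -0.26, SE 0.16). Cfd, which encodes the protease factor D (adipsin) and is abundant in fat, followed the arrays high in fat markers in part. It was at 6.14 in anti-IL-17A replicate 1 and 6.54 in isotype air replicate 3, both high in Ucp1, and at 5.39 in isotype O3 replicate 4, also high in Ucp1. The other db/db arrays lay between 4.33 and 5.41.

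**Figure D5:**
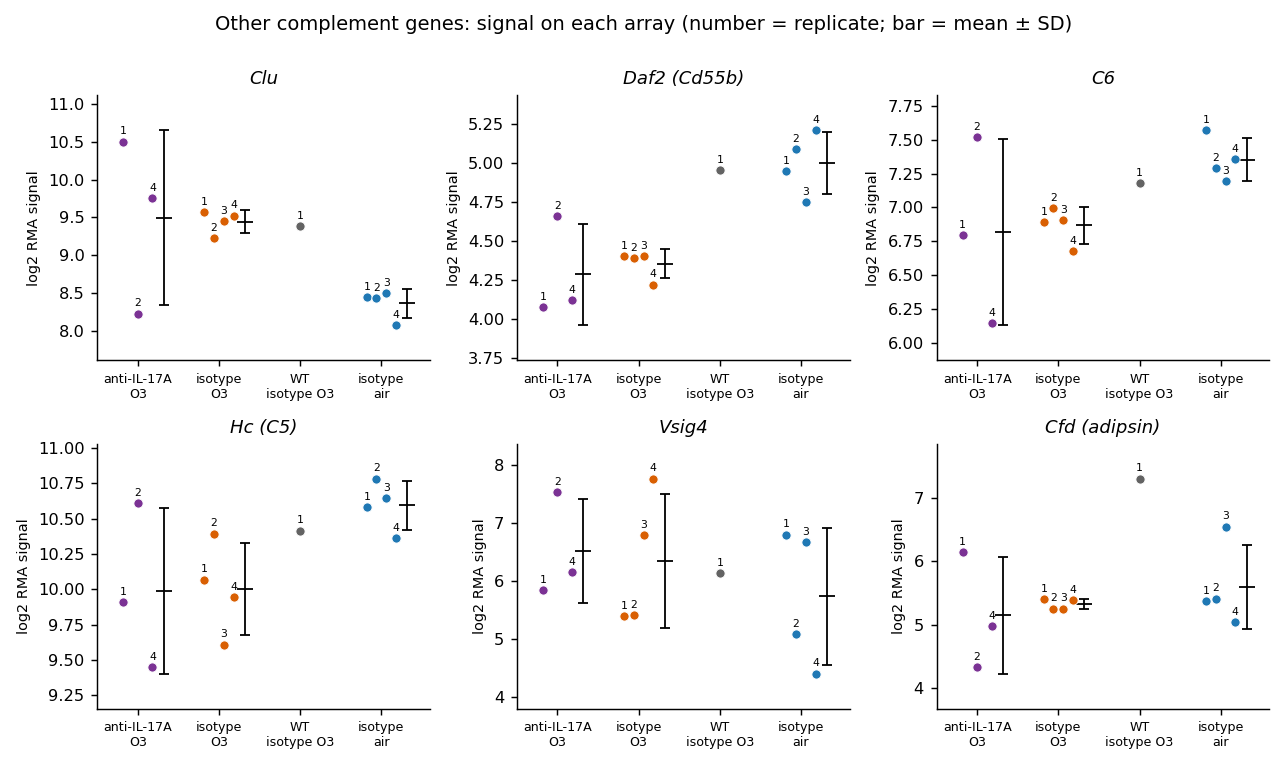
Signal of 6 complement genes outside the 9 members on each of the 12 arrays (log2 RMA signal, own vertical axis per panel). Points are arrays, numbered by replicate, in the order db/db anti-IL-17A O3, db/db isotype O3, WT isotype O3 and db/db isotype air, and bars give mean and SD where a group had more than 1 array. Clu in isotype O3 (9.23 to 9.57) lies above isotype air (8.07 to 8.50), Daf2 and C6 lie below it, and the WT array has the highest Cfd (7.30).

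For anti-IL-17A minus isotype 0 of the 50 were called, and 2 of 50, the members C1qc and C5ar1, had an unadjusted p under 0.05, against 4.6% of all genes. The median difference over the 50 was 0.09, against 0.04 over all genes. All 7 genes of the classical pathway had differences above 0 (median 0.30, highest 0.45 for C1qc), and 5 of 7 membrane regulators had differences below 0 (median -0.14, lowest -0.73 for Cd46 and Cd55). Both counts rested in part on single arrays. For C1s anti-IL-17A replicates 1 and 4 (8.19 and 8.25) lay below every isotype O3 array (8.26 to 8.53), and C1qa was at -0.07 without replicate 2. The regulators below 0, Cd55, Daf2, Cd46, Cd59a and Cr1l, were each lowest of the 12 arrays in replicate 1. That array was lowest for 19.7% of all genes. Cd46 was at 3.604, 5.15 and 4.9004 in the anti-IL-17A arrays, against 4.98 to 5.92 in isotype O3 (difference -0.73, SE 0.34, adjusted p = 0.83 from limma). As for Cd55, replicate 1 was the lowest of all 12 arrays, and without it the difference in Cd46 was -0.26. Against air, 0 of the 50 were called for the anti-IL-17A O3 arrays, and 9 had an unadjusted p under 0.05, 3 with a difference above 0 and 6 below, against 16.6% of all genes.

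With 1 WT array the comparison of db/db with WT mice after O3 had no replicate check and no test. Its title, source name and genotype label give it as WT, while its growth text, shared by all arrays, names db/db mice. For 6 of the 9 members the WT array lay within the range of the 4 isotype O3 arrays of db/db mice. For the other 3, C1qc, C5ar1 and Cd55, it lay above, as it did for 17.7% of all genes. C5ar1 was at 6.02 to 6.37 in the db/db arrays, against 7.04 in the WT array. Cd55 was at 8.58 to 9.17 in the db/db arrays, against 9.31 in the WT array, which was lower than the 9.62 to 9.76 of db/db mice exposed to air. The neutrophil markers averaged 6.04 to 6.65 in these db/db arrays, against 7.59 in the WT array. Cfd was at 5.25 to 5.41 in the same isotype O3 arrays of db/db mice, against 7.30 in the WT array. Over the 50 complement genes the WT array lay above the db/db range for 13 and below it for 5, against 17.7% and 22.1% of all genes.

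Over the 12 arrays the members did not form 1 block, and the correlations that follow are descriptions across arrays of 4 groups, which share exposure, antibody and cell content. Cfb, C3 and C1qb were alike, with Pearson's r of 0.80 between Cfb and C3, 0.84 between Cfb and C1qb and 0.87 between C3 and C1qb. Without anti-IL-17A replicates 1 and 2, which were high for these genes, r was 0.71, 0.71 and 0.79 over 10 arrays. Cd55 and C2 ran opposite to each other (r of -0.83 over 12 arrays and -0.68 over 10), and Cd55 had r between -0.40 and 0.15 with the other members. The genes most like a member were taken as the 5 with the highest r over the 12 arrays. For C3 they included C1qb (0.87), Twsg1 (0.87) and the lectin Fcna (0.85). C1qb was most like Tmc2 (0.90) and the mesothelial marker Upk3b (0.87), and Cfb most like Rpp25 (0.91), with the mesothelial marker Wt1 also among its 5 (0.86). C1qa was most like Il12rb2 (0.93), with the myeloid genes Cd300e (0.92) and Ms4a7 (0.91) also among its 5. These r were 0.84, 0.84 and 0.83 over the 10 arrays. C1qc was most like Kif2c (0.90) and Ccdc80 (0.86). For C3ar1 the 5 included Sirpa (0.90) and Itgb2 (0.86), and for C5ar1 Slc2a3 (0.92) and the neutrophil gene Cd177 (0.91). C2 was most like 2310035K24Rik (0.98), with Napsa, of alveolar type 2 cells, among its 5 (0.95). Cd55 was most like Fam82b (0.98) and Hnrnpa2b1 (0.98), and these r were 0.94 and 0.96 over the 10 arrays.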

How the data were processed

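Total lung RNA was hybridised as biotin-labelled cRNA to 12 Affymetrix arrays. The deposited log2 values were made by the authors with RMA in oligo (versions, and the genome build, not given in the sources used here). RMA subtracts background, quantile-normalizes the arrays and summarises each probe set, so that a level cannot be set against that of another probe set. Both deposited tables held the same values (largest difference 0). The authors' own columns of fold changes, statistics and p-values were not used.

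Of 35556 probe sets 25254 carried a symbol, and the one with the highest mean of 12 arrays was kept for each of 21759 genes (1921 had several). Of the 9 probe sets, 8 are annotated to the same single gene in the platform table, which does not list that of C3. Group means were fitted in limma 3.58.1 (R 4.3.3) with 8 residual degrees of freedom, p-values were adjusted by Benjamini-Hochberg over all genes, and those under 0.05 were called. Permutation tests were exact and two-sided, over 70 splits for 4 arrays against 4 and 35 for 3 against 4. The fit was tested on simulated data. By the rule for named genes, all 9 members were described, any gene of the complement lists could be named, the 5 genes with the highest Pearson's r with a member over the 12 arrays could be named as most like it, and marker genes were given by list, with Ucp1 and up to 3 of each list by highest mean. The club cell markers Scgb3a2 and Aldh1a1 were named as the 2 called, after their values were seen. The members, the lists and the marker lists were chosen with earlier results of these data known. Symbols are those of the files (C1s, Daf2 and Gpr77 for C1s1, Cd55b and C5ar2). Other normalizations, filters, variance models and array sets were tried. Promoters and gene order are from RefSeq (GRCm38.p6).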

Additional observations from a re-analysis of the deposited data

Results flagged for a closer look

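In 3 of 100 groups of 4 arrays examined, over the 50 complement genes, 1 array lay far from the other 3 of its group, and chance gives this in about 1 in 20 groups. Isotype O3 replicate 4 had a Daf2 signal of 4.22, with the others at 4.39 to 4.40. Isotype air replicate 4 had a C3ar1 signal of 6.40, with the others at 7.14 to 7.25, and a Clu signal of 8.07, with the others at 8.43 to 8.50.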

How the results depend on the processing

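For O3 minus air 0 of 9 members and 0 of 50 complement genes were called in the fit to all arrays. With array weights (whose estimation stopped before it converged) 1 member, Cd55 (lower), and 4 complement genes, 1 higher and 3 lower, were called. With only both groups in the fit the counts were 1, again Cd55, and 4. In fits chosen after seeing the data they were 1 and 2 less anti-IL-17A replicate 1 and 0 and 2 less anti-IL-17A replicate 2. At a threshold of 0.1 the counts were 0 and 1 (Daf2). For anti-IL-17A minus isotype no alternative called a member or another complement gene. For anti-IL-17A O3 minus air, array weights called 2 members and 13 complement genes, and leaving out 1 array at a time gave 0 to 2 members and 0 to 8 complement genes, the highest without anti-IL-17A replicate 2. Over all genes 230 were called for O3 minus air, against 2488 with array weights, 1706 with only both groups, 834 and 904 less anti-IL-17A replicate 1 or 2, 660 at a threshold of 0.1, 29 with array medians subtracted, 1 without the 3 arrays high in adipocyte markers, 0 without moderation and 0 to 14 when 1 array of either group was left out. For anti-IL-17A O3 minus air it was 0, against 5793 with array weights and 2756 without anti-IL-17A replicate 2. The cause was not tested.

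Differences near 0 changed sign. For O3 minus air, subtracting array medians gave 0.018 for C1qa and 0.0047 for C1qb, array weights gave -0.056 for Cfb, and leaving out the 3 arrays high in adipocyte markers gave -0.012 for Cfb. Leaving out 1 array at a time gave -0.18 to 0.033 for C3, -0.026 to 0.46 for Cfb, -0.045 to 0.057 for C1qa, -0.195 to 0.083 for C1qb and -0.21 to 0.017 for C1qc. For anti-IL-17A minus isotype, array weights gave -0.10 for C1qa and -0.012 for C3ar1, the 3 arrays left out gave 0.034 for Cd55, and C1qa ranged between -0.069 and 0.22 with 1 array left out. For anti-IL-17A O3 minus air, array weights gave -0.038 for C3, -0.16 for C1qa, -0.29 for C3ar1 and -0.42 for C5ar1, and with 1 array left out C1qa ranged between -0.080 and 0.21, C3ar1 between -0.13 and 0.48 and C5ar1 between -0.10 and 0.55. The replicate block gave 0 members and 0 complement genes in each comparison, with 238 genes in all for O3 minus air, and same-numbered arrays deviated together in some pairs only (correlations of -0.41 to 0.29 for O3 minus air, and of 0.43, 0.45 and -0.13 for replicates 1, 2 and 4 in anti-IL-17A minus isotype, where 1 and 2 correlated best with their own number), so that numbers were not taken as pairs. C8a, Colec10 and Cd59b had no value with the dimmest 40% of genes left out.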
